A study of Homo sapiens with 9 samples.

Results

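The 47 genes examined here encode proteins that license origins of DNA replication, fire them and work at the replication fork. The list was made by gene name, with earlier results of these data known, and its members were looked up by gene symbol among the gene lists of the series, the longest of which names 27615 genes. All 47 were found in at least 1 list. They were arranged in 5 role groups, which are origin licensing (14 genes), helicase activation (6), the replicative polymerases (10), the sliding clamp with its loader and the enzymes of fragment processing (10), and fork protection (7). RNA came from MDA-MB-231 cells, an established human triple-negative breast cancer line, and no allele or transgene distinguishes the cultures. The vehicle cells received DMSO, the second group received rimonabant, a blocker of the CB1 cannabinoid receptor, and the third received TXX-1-10, a compound derived from rimonabant. Each treatment has 3 libraries. The dose and duration for the sequenced cells are not given in the sources used here, nor is it stated whether the libraries of a treatment came from separate cultures, so p-values measure the spread between these libraries.

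Replication origins are licensed in G1, when the origin recognition complex (ORC) together with CDC6 and CDT1 loads the ring of MCM2 to MCM7 onto DNA. At the start of S phase CDC45 and the GINS complex bind this ring and turn it into the active helicase. The polymerases then copy both strands, PCNA and its loader RFC tether them, and RPA, claspin and the TIMELESS-TIPIN pair protect and monitor the exposed DNA. Many of these genes are known targets of E2F transcription factors, and their mRNAs are abundant in proliferating tumour cells.

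The authors' FPKM (reads scaled to gene length and a library total) rest on totals of 17078370 to 19277808, and what these totals count is not given in the sources used here. They are not the sums of the listed counts, and the ratio differed by group. Over the 9397 genes that 8 of the lists share, counts came to 98.5% to 99.8% of the total in vehicle, 94.1% to 94.2% in rimonabant replicates 2 and 3 and 88.7% to 92.3% in TXX-1-10 libraries, and the full list of vehicle replicate 1 came to 102%. Results that depend on this choice of scale are also given with the sum of counts. Each gene list ends early, after 4237 to 27615 genes, so a gene that a list does not name has no value there and is not at 0. Such a gene need not have few counts there. Rimonabant replicate 1 lists ATR at 981 counts but not ORC6, which had 1472 and 1527 in replicates 2 and 3. The list of rimonabant replicate 1 was the shortest. Tests therefore used the other 8 libraries, with 3 vehicle, 2 rimonabant and 3 TXX-1-10 libraries and 9369 genes, of which 45 were members, while 24 members could also be tested in all 9. Rimonabant replicate 1 and TXX-1-10 replicate 3 stood apart from their replicates, with a chi-square per degree of freedom of 24.3 to 42.2 in pairs with either against 2.29 to 6.76 in the others, and in both, longer genes had fewer counts than in the other replicates (Spearman rho -0.69 across genes in each). Mitochondrially encoded genes came to 6.06% to 6.86% of the totals in vehicle and rimonabant libraries and 3.06% to 3.51% in TXX-1-10 libraries. The part of the mitochondrial share in the results was not tested, while fits without TXX-1-10 replicate 3 and with a gene length correction are given with the results. Of the markers fixed for the line, VIM, CD44, AXL, MSN and CAV1 were listed for all 9 libraries. Their summed levels were 910.5 to 922 FPKM in vehicle, 775 to 781 in rimonabant replicates 2 and 3 and 705 to 755 under TXX-1-10. They did not move together. The log2 fold changes under TXX-1-10 were -2.70 for CAV1, -0.78 for AXL, -0.52 for CD44, 0.04 for VIM and 0.13 for MSN. Under rimonabant, in the same order, they were -1.54, -0.20, 0.25, -0.28 and 0.14. Of 9 epithelial markers, CDH1 was listed at 0 and ESR1 and PGR at 0.05 FPKM or less in the 4 libraries that list them, and GATA3 and FOXA1 stayed between 0.35 and 1.45 FPKM and EPCAM between 4.47 and 5.37 FPKM where listed. KRT8, KRT18 and ERBB2 were expressed, with sums of 149.7 to 156 FPKM in vehicle, 86.9 to 90.6 in rimonabant replicates 2 and 3 and 84.9 to 97.6 under TXX-1-10. The part of these shifts in the results was not tested.

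In the fit of 8 libraries the mRNA of all 45 tested replication genes was lower under TXX-1-10, though the calls of ORC5 and RPA2 were lost in some alternatives. Together the 45 genes took 4687 to 4698 counts per 1000000 of the library total in vehicle libraries, 4493 to 4498 in rimonabant replicates 2 and 3, and 2093 to 2181 in the TXX-1-10 libraries, so the TXX-1-10 level lay far below both other groups, which did not overlap with it. The median log2 fold change against vehicle was -1.22, a 2.32-fold fall, whereas the median over all 9369 genes was -0.04. By edgeR's quasi-likelihood test with Benjamini-Hochberg adjustment over all tested genes, 45 of 45 members were lower at an adjusted p under 0.05, against a background of 40.6% of tested genes. At least 2-fold lower were 32 of 45, against a background of 7.39%. In each of the 45 every TXX-1-10 library was below every vehicle library, which was so for 41.2% of all tested genes. In the fit of all 9 libraries 24 of 24 testable members were lower (background 43.8%) and 16 at least 2-fold (background 7.6%). As these are bulk samples, fewer cells in S phase and less of the mRNA per cell cannot be told apart. When the sum of counts over tested genes replaced the library totals, the median of all genes shifted by 0.14 and the members' median was -1.08, with 43 of 45 still lower and 25 at least 2-fold. With the gene length correction 43 were lower and 30 at least 2-fold.

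**Figure D1:**
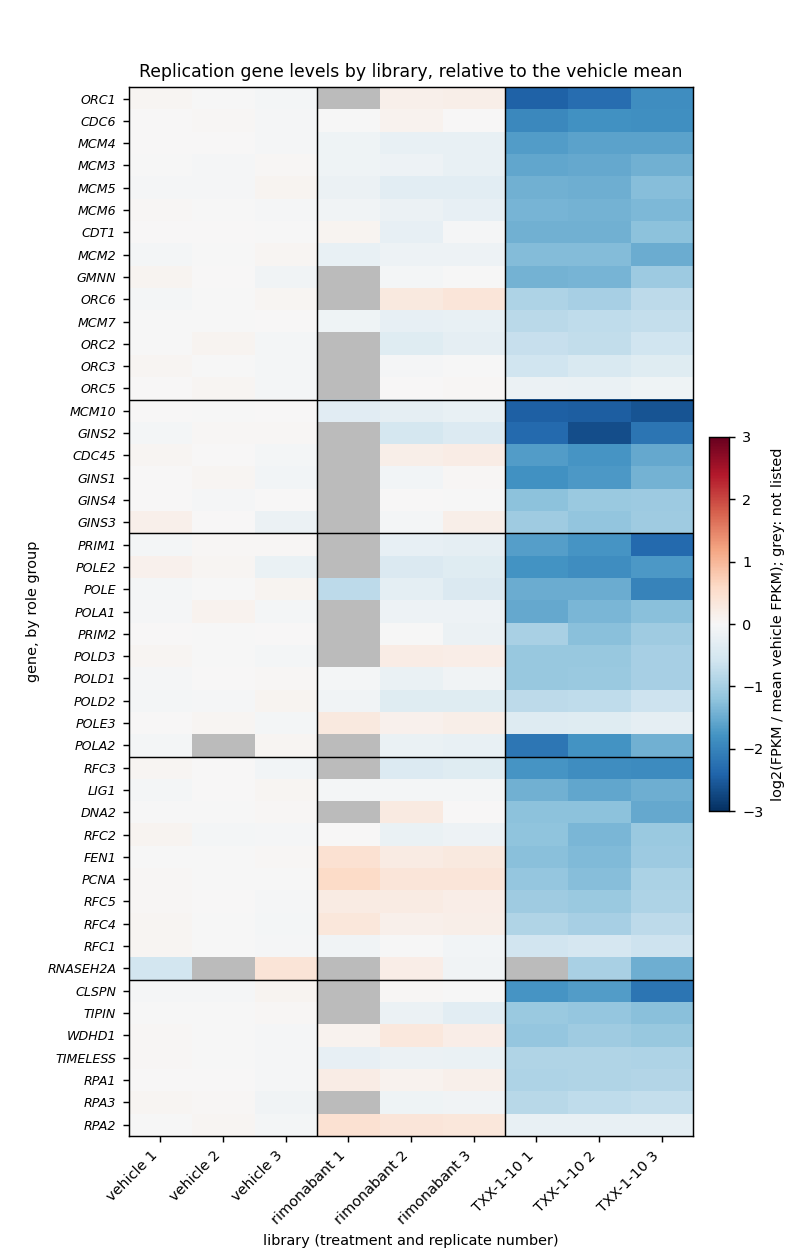
Heat map of log2(FPKM / mean vehicle FPKM) for the 47 replication genes (rows, by role group and within it by the TXX-1-10 change) in the 9 libraries (columns), with grey where a list does not name the gene. The 3 TXX-1-10 columns are blue throughout, palest in ORC5 and RPA2, while the rimonabant columns hold pale reds and pale blues.

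The list spread over a wide range of basal levels and of change. In vehicle cells mean levels of tested members ran from 3.38 FPKM for GINS3 to 134 FPKM for PCNA, with a median of 18.3 FPKM, and the coefficient of variation between vehicle libraries had a median of 3.55%. Between TXX-1-10 libraries it was 5.22%. The log2 fold change under TXX-1-10 ran from -2.50 for MCM10 to -0.16 for ORC5. Only MCM10, GINS2 and ORC1 fell at least 4-fold. The members just inside 2-fold were POLD3 (-1.09), POLD1 (-1.08) and RFC5 (-1.03), and those just outside were ORC6 (-0.91), TIMELESS (-0.91) and RPA1 (-0.90). Across the 45 members, which share libraries and depth, the change had a Spearman rho of 0.11 with the vehicle level and of -0.04 with gene length. Without TXX-1-10 replicate 3, the library that stood apart, 38 of 45 values moved by under 0.1, the 32 genes at least 2-fold lower were the same, and the largest shifts were in ORC1 (to -2.35), PRIM1 (to -1.71), POLE (to -1.50) and CLSPN (to -1.72). By role group the medians were -1.37 for licensing, -1.65 for helicase activation, -1.09 for polymerases, -1.22 for clamp, loader and fragment processing, and -0.91 for fork protection.

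**Figure D2:**
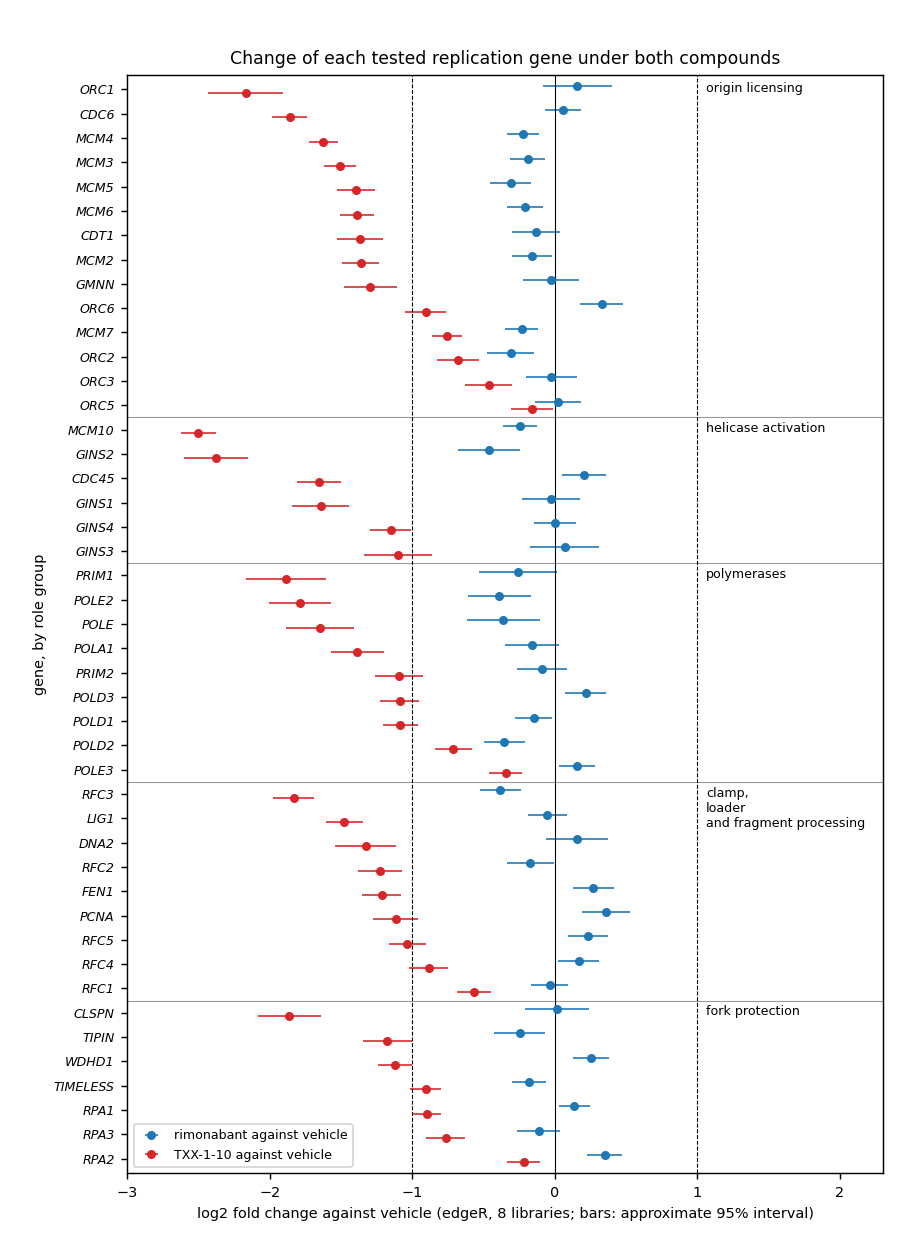
Log2 fold change against vehicle of the 45 tested replication genes under TXX-1-10 (red) and rimonabant (blue), with approximate 95% intervals from the edgeR fit of 8 libraries, grouped by role. Solid and dashed vertical lines mark no change and 2-fold change. All red points lie left of 0, from -2.50 (MCM10) to -0.16 (ORC5), and all blue points lie between -0.5 and 0.5.

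Among the 14 licensing genes, 9 fell at least 2-fold under TXX-1-10. ORC1, the ORC subunit whose protein is itself cell cycle regulated in human cells, measured 7.62, 7.27 and 7.03 FPKM in the vehicle libraries, 8.12 and 8.19 in rimonabant replicates 2 and 3, and 1.36, 1.498 and 2.01 under TXX-1-10. The TXX-1-10 libraries were far below the rest, and replicate 3 was the highest of them. The log2 fold change against vehicle was -2.17 ± 0.12 (SE, edgeR adjusted p = 7.45e-09), a 4.50-fold fall. CDC6, the ATPase that joins ORC to load the MCM ring, measured 25.3, 25.5 and 24.2 FPKM in vehicle, 24.8, 26.8 and 25.2 in the 3 rimonabant libraries and 6.57, 7.07 and 6.98 under TXX-1-10. Vehicle and rimonabant levels of CDC6 overlapped, and the TXX-1-10 level was 3.64-fold below vehicle (-1.86 ± 0.055, edgeR adjusted p = 3.81e-11). The log2 fold changes of CDT1, the MCM loading factor, and GMNN, which encodes its inhibitor geminin, were -1.37 and -1.29.

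The remaining ORC subunits fell less than ORC1. ORC6 decreased by 0.91 on the log2 scale, ORC2 by 0.68, ORC3 by 0.46 and ORC5 by 0.16. ORC5 had 7.53, 7.75 and 7.22 FPKM in vehicle, 7.51 and 7.74 in rimonabant replicates 2 and 3 and 6.67, 6.57 and 6.89 under TXX-1-10. Its 3 TXX-1-10 libraries were the lowest of the 8, but by a narrow margin. Its call (adjusted p = 0.0431, edgeR) was lost in 13 of the 20 alternative fits, with adjusted p up to 0.744, so the fall of ORC5 depends on the settings chosen. ORC4, not a member but a subunit of the same complex, had a log2 fold change of 0.12 (adjusted p = 0.123, edgeR) and did not pass.

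All 6 genes of the MCM ring fell, MCM4 most and MCM7 least. MCM2 measured 35.7, 36.7 and 38.3 FPKM in vehicle, 31.6, 33.0 and 33.0 FPKM under rimonabant and 15.0, 14.9 and 13.1 FPKM under TXX-1-10. MCM3 measured 75.4, 73.9 and 76.9 in vehicle, 69.0, 67.8 and 64.2 with rimonabant and 25.7, 26.1 and 27.8 with TXX-1-10. Both had 3 separate groups, with TXX-1-10 lowest. MCM4 gave 35.0, 35.2 and 34.1 FPKM in vehicle, 31.7, 29.9 and 29.7 FPKM under rimonabant and 10.9, 11.5 and 11.5 FPKM under TXX-1-10. MCM5 gave 18.04, 18.001 and 19.5 FPKM, then 16.3, 14.9 and 15.0 with rimonabant, then 6.77, 6.75 and 7.58 with TXX-1-10. In MCM4 and MCM5 too, each TXX-1-10 library was below each rimonabant library and each of those below vehicle. MCM6 read 25.2, 24.4 and 23.9 FPKM in vehicle, 22.7, 21.8 and 20.5 FPKM under rimonabant and 9.33, 9.20 and 9.55 FPKM under TXX-1-10. MCM7 read 109.7, 109.8 and 112 FPKM in vehicle, 102, 93.4 and 94.4 with rimonabant and 63.4, 65.3 and 67.4 with TXX-1-10. These groups did not overlap either. The log2 fold changes under TXX-1-10 were -1.36 ± 0.060 for MCM2, -1.51 ± 0.052 for MCM3, -1.62 ± 0.047 for MCM4, -1.40 ± 0.061 for MCM5, -1.39 ± 0.054 for MCM6 and -0.76 ± 0.048 for MCM7 (SE), the highest edgeR adjusted p being 2.37e-08. MCM7 was the most abundant ring gene per length before treatment, and its fold fall of 1.69 was below the 2.57 to 3.08 of the other 5. MCM2 shares 23.6% of its exon bases with other annotated genes, mostly an antisense one, and whether counting used strand is not given in the sources used here.

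**Figure D3:**
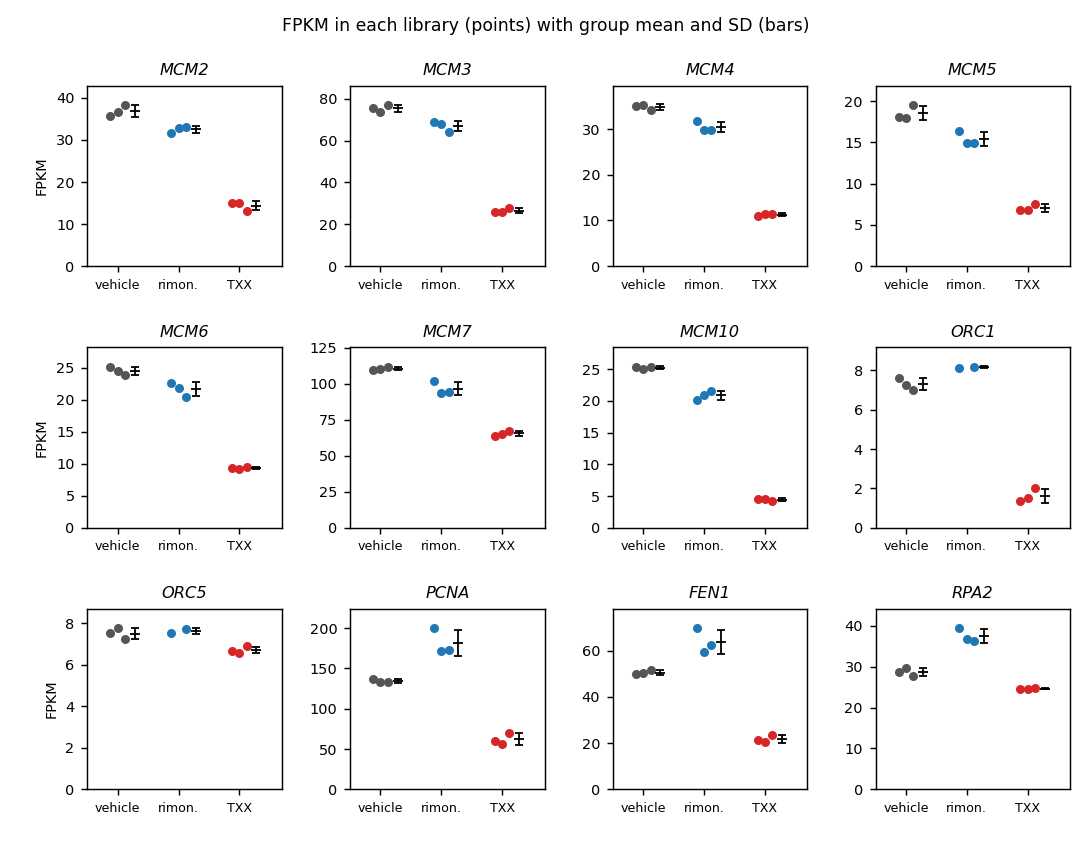
FPKM of 12 replication genes in each library (points) under vehicle (grey), rimonabant (blue) and TXX-1-10 (red), with the group mean and SD as black bars and each vertical axis starting at 0. ORC1 and ORC5 have 2 rimonabant points. TXX-1-10 points lie lowest in every panel, PCNA and RPA2 rise under rimonabant, and ORC5 barely differs between groups.

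The promoter windows of MCM3, MCM6 and ORC5 are shown because the first 2 hold matches to E2F-type octamers and fell over 2-fold, while that of the least changed member holds none. They are RefSeq windows on GRCh38.p14, from 250 bases before the start site to 50 from it on, read 5′ to 3′ on the gene's strand, with each octamer match on either strand in capitals.
MCM3 (chr6:52284693-52284992, minus strand): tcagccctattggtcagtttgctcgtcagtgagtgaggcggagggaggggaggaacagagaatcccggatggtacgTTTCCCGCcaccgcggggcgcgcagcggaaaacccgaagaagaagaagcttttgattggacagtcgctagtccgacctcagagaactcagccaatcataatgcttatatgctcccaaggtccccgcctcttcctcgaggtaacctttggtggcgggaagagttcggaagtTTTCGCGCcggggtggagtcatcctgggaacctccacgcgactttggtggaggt
MCM6 (chr2:135876394-135876693, minus strand): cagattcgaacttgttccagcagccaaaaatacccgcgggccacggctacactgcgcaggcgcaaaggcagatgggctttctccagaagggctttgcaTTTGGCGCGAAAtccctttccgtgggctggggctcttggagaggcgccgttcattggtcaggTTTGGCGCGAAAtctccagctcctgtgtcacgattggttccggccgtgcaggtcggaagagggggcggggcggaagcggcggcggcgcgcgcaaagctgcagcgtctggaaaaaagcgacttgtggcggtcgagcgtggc
ORC5 (chr7:104207964-104208263, minus strand): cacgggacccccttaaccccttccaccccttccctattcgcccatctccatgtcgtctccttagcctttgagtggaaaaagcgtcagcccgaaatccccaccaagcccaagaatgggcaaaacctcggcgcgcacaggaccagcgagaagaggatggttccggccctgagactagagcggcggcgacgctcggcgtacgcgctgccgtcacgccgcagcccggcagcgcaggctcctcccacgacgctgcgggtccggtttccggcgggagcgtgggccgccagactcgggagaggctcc
In MCM3 the matches begin at -174 and -4 counted from the start base, and in MCM6 each capital run holds 2 overlapping matches, 1 per strand, beginning at -152 and -148 and at -90 and -86. These windows are examples, since MCM10 and ORC1 fell more and hold no match, and MCM7 holds matches but fell less than 2-fold.

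The 6 genes of helicase activation showed the lowest median, and all 6 fell at least 2-fold. MCM10, a factor needed to activate the loaded helicase, had 25.3, 25.0 and 25.4 FPKM in vehicle, 20.1, 20.9 and 21.6 in the 3 rimonabant libraries and 4.60, 4.55 and 4.22 under TXX-1-10. The 3 groups did not overlap, and the TXX-1-10 libraries were 5.66-fold below vehicle, the largest fall of the 45 tested members (-2.50 ± 0.055, SE, edgeR adjusted p = 7.16e-12). GINS2, a subunit of the 4-protein GINS complex, had 12.2, 12.9 and 12.9 FPKM in vehicle, 8.79 and 9.59 in rimonabant replicates 2 and 3, and 2.53, 1.999 and 2.80 under TXX-1-10. It too formed 3 separate groups, with a log2 fold change of -2.38 ± 0.10 (edgeR adjusted p = 8.71e-10) under TXX-1-10. The other GINS subunits fell by 1.64 (GINS1), 1.15 (GINS4) and 1.10 (GINS3) on the log2 scale, so the mRNAs of 1 complex changed unequally. GINS3 was the least changed of the role group, with 3.74, 3.42 and 2.98 FPKM in vehicle, 3.27 and 3.82 in rimonabant replicates 2 and 3, and 1.62, 1.49 and 1.61 under TXX-1-10. Its rimonabant and vehicle values overlapped, while TXX-1-10 lay below both. CDC45, the third part of the active helicase, went from 20.9, 20.4 and 19.4 FPKM in vehicle and 22.8 and 23.8 in rimonabant replicates 2 and 3 to 6.32, 5.96 and 6.97 under TXX-1-10. Rimonabant was the highest group of CDC45 and TXX-1-10 the lowest (-1.66 ± 0.070 against vehicle, edgeR adjusted p = 7.06e-10).

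Polymerase subunits divided by size of change. Of 9 tested, 7 fell at least 2-fold, and the exceptions were POLD2 and POLE3. PRIM1, the catalytic primase subunit that starts each new fragment, had 11.1, 11.9 and 11.9 FPKM in vehicle, 9.81 and 9.66 in rimonabant replicates 2 and 3, and 3.70, 3.39 and 2.32 under TXX-1-10. TXX-1-10 was lowest in PRIM1 and its replicate 3 lower than the other two, giving -1.89 ± 0.13 (SE, edgeR adjusted p = 4.61e-08). POLE2, the second subunit of the leading strand polymerase epsilon, had 12.4, 11.9 and 9.84 FPKM in vehicle, 8.49 and 8.88 in rimonabant replicates 2 and 3, and 3.30, 3.13 and 3.46 under TXX-1-10. The groups were again apart, although vehicle replicate 3 was lower than the other vehicle libraries (-1.79 ± 0.10, edgeR adjusted p = 8.27e-09). POLE, the catalytic subunit, fell by 1.65 and POLE3, a histone-fold subunit, by 0.35. POLE3 had 38.8, 40.1 and 37.4 FPKM in vehicle, 47.4, 42.5 and 43.8 in the 3 rimonabant libraries and 29.5, 30.0 and 32.0 under TXX-1-10, so rimonabant was above vehicle and TXX-1-10 below it without overlap. The interval of its TXX-1-10 change, -0.46 to -0.23, did not overlap that of POLE, -1.89 to -1.41. For polymerase delta, the lagging strand enzyme, POLD1 (catalytic) and POLD3 fell by 1.08 and 1.09, and POLD2 by 0.71. POLD3 had 9.51, 9.14 and 8.87 FPKM in vehicle, 10.7 and 10.6 in rimonabant replicates 2 and 3, and 4.19, 4.17 and 4.57 under TXX-1-10, with rimonabant highest and no overlap. POLA1, the polymerase alpha catalytic subunit, and PRIM2, the large primase subunit, fell by 1.39 and 1.09.

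POLA2 and RNASEH2A were not tested, since some of the 8 lists end before them. POLA2, the polymerase alpha accessory subunit, was listed at 1.37 and 1.47 FPKM in vehicle replicates 1 and 3, 1.23 and 1.22 in rimonabant replicates 2 and 3, and 0.32, 0.41 and 0.52 in the TXX-1-10 libraries, whose values were the lowest. RNASEH2A, the catalytic subunit of the enzyme that removes ribonucleotides, was listed at 0.48 and 0.92 FPKM in vehicle replicates 1 and 3, 0.80 and 0.65 in rimonabant replicates 2 and 3, and 0.36 and 0.25 in TXX-1-10 replicates 2 and 3. Its TXX-1-10 values were also the lowest, but a vehicle value lay close to them. The vehicle levels of both were below those of all tested members, and both genes share many exon bases with another protein-coding gene on the same strand, POLA2 35.1% with AP000944.2 and RNASEH2A 30.8% with THSD8, so that reads there cannot be assigned to 1 gene. At least 10% of exon bases were shared with another gene in 8 of the 47 members, the others being MCM2, GINS4, PRIM1, TIPIN, GINS3 and RFC5, and 27 shared none.

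In the clamp, loader and fragment group 7 of 9 tested genes fell at least 2-fold. PCNA, the ring that tethers polymerases, had 137, 133 and 134 FPKM in vehicle, 199.7, 172 and 173 in the 3 rimonabant libraries and 60.1, 55.6 and 70.0 under TXX-1-10. It was thus highest under rimonabant and lowest under TXX-1-10, with no overlap, and rimonabant replicate 1 was the highest library. Against vehicle the TXX-1-10 change was -1.12 ± 0.072 (SE, edgeR adjusted p = 2.87e-08). FEN1, the flap nuclease that trims lagging strand fragments, followed the same order, with 49.8, 50.4 and 51.6 FPKM in vehicle, 69.7, 59.5 and 62.4 in the 3 rimonabant libraries and 21.2, 20.3 and 23.7 under TXX-1-10 (-1.22 ± 0.062, edgeR adjusted p = 3.56e-09). LIG1, which seals the fragments, had 11.1, 11.6 and 12.01 FPKM in vehicle, 11.1, 11.1 and 11.2 in the 3 rimonabant libraries and 4.28, 3.95 and 4.21 under TXX-1-10. Vehicle and rimonabant values of LIG1 overlapped, and the TXX-1-10 change was -1.48 ± 0.059 (edgeR adjusted p = 4.48e-10). DNA2, a nuclease and helicase of long flaps, fell by 1.33.

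The 5 loader genes did not move equally. RFC3 fell most and RFC1, the large subunit particular to this loader, least. RFC3 had 22.6, 22.1 and 20.7 FPKM in vehicle, 16.5 and 16.9 in rimonabant replicates 2 and 3, and 6.44, 5.98 and 5.92 under TXX-1-10. The groups were separate, and the log2 fold change was -1.83 ± 0.065 (edgeR adjusted p = 1.68e-10). RFC1 had 15.6, 14.8 and 14.6 FPKM in vehicle, 13.9, 14.9 and 14.2 in the 3 rimonabant libraries and 10.0, 10.6 and 9.73 under TXX-1-10, with overlap of vehicle and rimonabant and a change of -0.57 ± 0.055 (edgeR adjusted p = 1.23e-06). Between them, RFC2, RFC5 and RFC4 fell by 1.23, 1.03 and 0.89. RFC5 had 22.1, 21.8 and 21.1 FPKM in vehicle, 25.7, 25.8 and 25.1 in the 3 rimonabant libraries and 10.3, 10.0 and 11.4 under TXX-1-10. For RFC4 the vehicle libraries held 33.7, 32.4 and 31.3 FPKM, the rimonabant ones 40.9, 36.0 and 36.8 and those of TXX-1-10 17.3, 16.4 and 19.0. In both, rimonabant libraries were above vehicle and TXX-1-10 libraries below. The PCNA promoter is shown as that of a gene with opposite changes under the compounds, in the same RefSeq window, strand reading and capitals as above.
PCNA (chr20:5126573-5126872, minus strand): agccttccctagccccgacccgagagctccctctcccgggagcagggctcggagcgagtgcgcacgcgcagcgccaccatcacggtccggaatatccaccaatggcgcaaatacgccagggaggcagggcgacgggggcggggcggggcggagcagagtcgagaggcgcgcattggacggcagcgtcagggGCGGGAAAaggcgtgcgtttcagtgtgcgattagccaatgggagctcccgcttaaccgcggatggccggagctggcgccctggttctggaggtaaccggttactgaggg
Its match lies on the opposite strand and begins at -59.

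Fork protection had the smallest median change, with 3 of 7 genes at least 2-fold lower. CLSPN encodes claspin, an adaptor of the CHK1 checkpoint kinase that also sets fork speed. It had 13.2, 13.1 and 14.3 FPKM in vehicle, 13.9 and 13.4 in rimonabant replicates 2 and 3, and 3.95, 4.24 and 2.96 under TXX-1-10. Vehicle and rimonabant overlapped, TXX-1-10 was far lower, and its replicate 3 was the lowest (-1.86 ± 0.10, SE, edgeR adjusted p = 6.75e-09). TIPIN, the partner of TIMELESS, had 10.0, 10.1 and 10.3 FPKM in vehicle, 8.93 and 8.15 in rimonabant replicates 2 and 3, and 4.67, 4.56 and 4.22 under TXX-1-10, in 3 separate groups (-1.18 ± 0.078, edgeR adjusted p = 3.91e-08). TIMELESS itself fell by 0.91. WDHD1, which links the helicase to polymerase alpha, had 18.7, 18.2 and 17.9 FPKM in vehicle, 19.8, 22.6 and 21.0 in the 3 rimonabant libraries and 8.12, 8.79 and 8.31 under TXX-1-10, a change of -1.12 ± 0.055 (edgeR adjusted p = 2.57e-09).

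RPA, the trimer that coats single-stranded DNA, changed less than most of the list. RPA1 had 57.1, 56.7 and 55.5 FPKM in vehicle, 65.7, 61.2 and 62.9 in the 3 rimonabant libraries and 29.6, 30.3 and 30.9 under TXX-1-10, and fell by 0.90. RPA3 fell by 0.77. RPA2 had 28.7, 29.8 and 27.6 FPKM in vehicle, 39.4, 36.8 and 36.3 in the 3 rimonabant libraries and 24.6, 24.6 and 24.7 under TXX-1-10. Its TXX-1-10 values were nearly equal and just below vehicle, and its rimonabant values were well above. The TXX-1-10 change of RPA2 was -0.22 ± 0.053 (edgeR adjusted p = 0.00236). It was not past the threshold when the sum of counts set the scale (adjusted p = 0.166) or when a trend with gene length was removed (adjusted p = 0.122). With that trend removed in the fit of all 9 libraries it was -0.07 (edgeR adjusted p = 0.403).

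**Figure D4:**
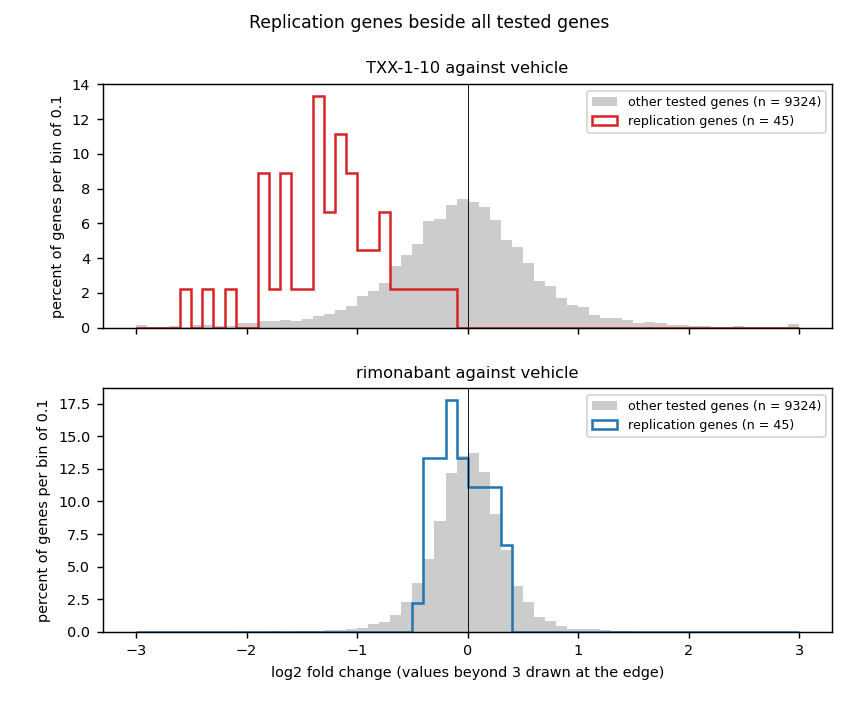
Distribution of log2 fold changes against vehicle in bins of 0.1 for the 45 tested replication genes (outline) and the 9324 other tested genes (grey), as percent of each set, under TXX-1-10 (top) and rimonabant (bottom). Under TXX-1-10 the outline is centred near -1.22 and the grey near 0, while under rimonabant both are centred near 0.

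Rimonabant gave small changes in both directions, as it did among all tested genes. Against vehicle, 14 of 45 members were lower (background 22.8%), 10 were higher (background 23.7%) and 21 did not pass (edgeR, adjusted p under 0.05). These are 31.1% and 22.2% of the members, the latter share close to that of all genes, and a difference from all genes was not tested. No member changed 2-fold, and 1.49% of all tested genes did. The median was -0.05, and all 45 estimates lay between -0.5 and 0.5. For members, each listed rimonabant library was counted, replicate 1 included where it named the gene. All of them lay above all vehicle libraries in 12 members and below them in 19, and the ranges overlapped in 14. Over all tested genes, replicates 2 and 3 alone lay above all vehicle libraries in 36.5% and below them in 35.8%. These rules differ, so counts and shares are not like for like. The lower genes were ORC2, MCM3 to MCM7, MCM10, GINS2, POLD2, POLE, POLE2, RFC3, TIMELESS and TIPIN, with changes of -0.46 to -0.18 (adjusted p 0.000695 to 0.0272). The higher genes were ORC6, CDC45, POLD3, POLE3, PCNA, RFC5, FEN1, RPA1, RPA2 and WDHD1, with changes of 0.14 to 0.36 (adjusted p 0.000474 to 0.0476). Of the higher genes, ORC6, PCNA and RPA2 passed in every alternative that gave a value, and of the lower ones MCM4, MCM5, MCM7, MCM10, GINS2, POLD2 and RFC3 did. With the sum of counts as scale the split was 9 lower and 11 higher in place of 14 and 10. Of all tested genes, 16.6% were then lower and 32.9% higher. Leaving out rimonabant replicate 2 or 3, so that 1 remained, gave members' medians of -0.05 and -0.06 in that order.

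Called members are given by role as a description, since the roles hold few genes each and, of all tested genes, 22.8% were lower and 23.7% higher. In the MCM ring 5 of 6 were lower, from -0.31 (MCM5) to -0.19 (MCM3), and MCM2, at -0.16 (adjusted p = 0.0601, edgeR), did not pass. In the clamp, loader and fragment group 3 of 9 were higher and only RFC3 (-0.38) was lower. PCNA was 1.28-fold above vehicle (0.36 ± 0.077, SE, edgeR adjusted p = 0.00262), FEN1 1.21-fold (0.27 ± 0.065, edgeR adjusted p = 0.00531) and RFC5 1.17-fold (0.23 ± 0.064, edgeR adjusted p = 0.011). RPA2, of the single-strand binding trimer, was 1.27-fold higher (0.35 ± 0.057, edgeR adjusted p = 4.74e-04), RPA1 1.10-fold, and RPA3 had -0.12 and did not pass. ORC6 measured 14.4, 14.8 and 15.4 FPKM in vehicle, 18.2 and 19.1 in rimonabant replicates 2 and 3, and 7.79, 7.39 and 8.56 under TXX-1-10, so that rimonabant was highest and 1.26-fold above vehicle (0.33 ± 0.069, edgeR adjusted p = 0.00228). Another ORC subunit, ORC2, went the other way (-0.31). CDC45 was 1.15-fold, POLD3 1.16-fold, POLE3 1.11-fold and WDHD1 1.19-fold above vehicle.

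The fit of all 9 libraries restores rimonabant replicate 1 for 24 members. There, 10 were lower and 8 higher, against backgrounds of 25.2% and 23.7%, and 6 did not pass. The 7 higher and 9 lower members of the 8-library fit that could be tested there kept call and direction, while MCM2 joined the lower and RFC4 the higher genes. The PCNA change was 0.43 in that fit and the POLE change -0.49. Rimonabant replicate 1 read lowest of its group in POLE, the member with the widest spread between rimonabant libraries. Of the 21 members that did not pass in the 8-library fit, 16 were at least 2-fold lower under TXX-1-10, and their 95% intervals under rimonabant reached from -0.53 to 0.40, so falls beyond 2-fold lay outside them.

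The compounds were also compared directly, as 1 pair, with 3 TXX-1-10 libraries and rimonabant replicates 2 and 3. TXX-1-10 is derived from rimonabant, and the sources used here do not say whether the doses matched. Relative to rimonabant, TXX-1-10 left all 45 members lower (background 33.9%), 33 of them at least 2-fold (background 4.31%), with a median of -1.24. Every TXX-1-10 library was below both rimonabant libraries in 45 of 45, as in 39.4% of all tested genes. In all 9 libraries 24 of 24 members were lower (background 39.4%) and 17 at least 2-fold (background 4.34%). The gap was widest for ORC1, -2.33 ± 0.13 (SE, interval -2.60 to -2.05, edgeR adjusted p = 2.05e-08), followed by MCM10 at -2.25 and CDC6 at -1.92. Each gap equals the TXX-1-10 change against vehicle less the rimonabant change, so it is wider by construction for genes with a positive rimonabant change, as in PCNA (-1.48 against -1.12) and ORC6 (-1.24 against -0.91), and narrower for those with a negative one, as in GINS2 (-1.91 against -2.38) and POLD2 (-0.36 against -0.71). The narrowest gap was in ORC5, -0.18 ± 0.073 (interval -0.34 to -0.02, edgeR adjusted p = 0.0458), whose call was lost in 14 of 22 alternatives. The 44 others had adjusted p of 0.00112 or less, and 11 of them were under 2-fold.

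Promoter windows were matched by symbol for 40 of the 47 members, in 51 windows. An E2F-type octamer (TTTCCCGC, TTTCGCGC, TTTGCCGC or TTTGGCGC, on either strand) was present in 20 of 40 members, 50%, and in 3.99% of the 27305 genes of the RefSeq table. Counted by window, the shares were 39.2% of 51 and 3.32% of 35116. CCAAT, the box bound by NF-Y, was present in 62.5% of members and 39.7% of all genes on either strand. TTTGAA, the core of the cell cycle homology region found in mitotic genes, was present in 2.5% of members, POLE3 alone, and in 18.2% of all genes. Octamer matches on opposite strands overlapped in MCM2, MCM6 and TIPIN, and a CCAAT overlapped an octamer in MCM7. Of 19 tested members with an octamer 17 fell at least 2-fold under TXX-1-10, with a median of -1.39, and of 19 without one 10 did, with a median of -1.03. The background over all tested genes was 7.39%. Genes outside the list were not split by octamer, and a difference between the 2 sets of members was not tested. The ranges overlapped widely, since MCM10 and ORC1, among the most reduced genes, had no match, and ORC3 (-0.46) and MCM7 (-0.76) had one. Under rimonabant the medians were -0.16 with and 0.02 without a match. A match describes these letters and no binding was measured.

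**Figure D5:**
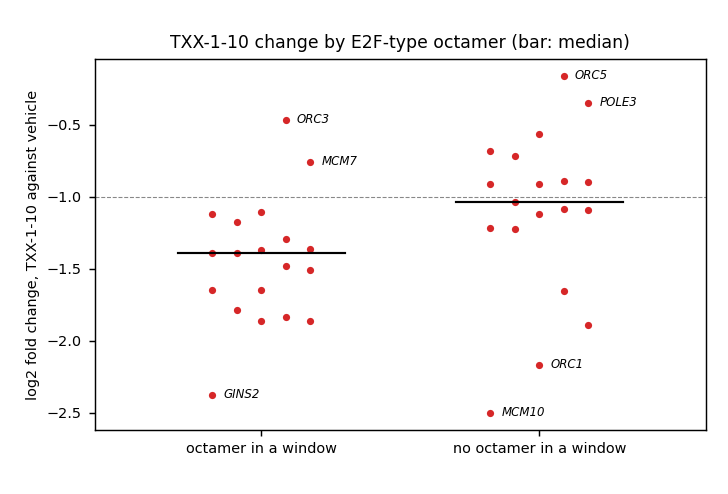
Log2 fold change of TXX-1-10 against vehicle for the 38 tested replication genes with a promoter window, split by whether a window holds an E2F-type octamer (19 genes each), with the median as a bar and 2-fold lower as the dashed line. The medians are -1.39 with and -1.03 without an octamer, and the points overlap.

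A second list of 40 genes with roles in replication, apart from the members, was read the same way, and 38 were tested. Under TXX-1-10 34 were lower (background 40.6%), 18 of them at least 2-fold (background 7.39%), 2 were higher (background 34.7%) and 2 did not pass, with a median of -0.99. Among the kinase and firing factors, CDC7 had -1.61, its activator DBF4 -0.79, TOPBP1 -1.03 and TICRR, which carries CDC45 to origins, -1.95. The lowest was DSCC1 (-2.03 ± 0.11, SE, edgeR adjusted p = 7.85e-09), part of an alternative clamp loader, with 12.4, 13.1 and 13.4 FPKM in vehicle and 2.89, 2.72 and 3.90 under TXX-1-10. Chromatin assembly genes fell as well, CHAF1B with -1.80 and ASF1B with -1.25. Higher were HUS1 (0.52 ± 0.089, edgeR adjusted p = 1.79e-04) and RAD17 (0.35 ± 0.055, edgeR adjusted p = 8.73e-05), parts of the checkpoint clamp and its loader, while their partners RAD1 (-0.31) and RAD9A (-0.10, adjusted p = 0.408, edgeR) were lower and not past the threshold, respectively. HUS1 had 3.31, 4.11 and 3.50 FPKM in vehicle and 5.20, 5.22 and 5.28 under TXX-1-10, without overlap. POLD4, the small subunit of polymerase delta, was not tested because vehicle replicate 2, among the 8 fitted libraries, does not list it. It was listed at 2.05 and 2.04 FPKM in vehicle replicates 1 and 3, 2.56 and 2.74 in rimonabant replicates 2 and 3 and 5.80, 5.56 and 7.56 under TXX-1-10, so that it was highest where POLD1, POLD2 and POLD3 were lowest. Under rimonabant 12 of the 38 were lower (background 22.8%), 7 higher (background 23.7%) and 19 did not pass, with ASF1B (0.44) and ASF1A (-0.55) at the ends.

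Most cell cycle markers were lower under TXX-1-10, as the replication genes were. All 10 G2 and M genes (CCNB1, CCNB2, CDK1, PLK1, CDC20, AURKA, AURKB, BUB1, TOP2A and MKI67) were at least 2-fold lower under TXX-1-10 (background 7.39%). Their median was -1.92, with summed levels of 706 to 729 FPKM in vehicle, 465 to 473 in rimonabant replicates 2 and 3, and 178 to 186 under TXX-1-10. Under rimonabant 7 of 10 were lower (background 22.8%), CDC20 most (-1.30), with a median of -0.54 that was below the -0.05 of the replication genes. Of the 8 tested regulators of the G1 to S step, 7 were lower (background 40.6%) and 1 higher (background 34.7%) under TXX-1-10. With rimonabant, 3 were lower (background 22.8%), 3 higher (background 23.7%) and 2 not past the threshold. E2F1 had 39.3, 39.8 and 38.2 FPKM in vehicle, 63.5, 53.5 and 57.6 in the 3 rimonabant libraries and 14.5, 15.1 and 18.04 under TXX-1-10, that is 0.51 and -1.30 on the log2 scale. Cyclin gene CCNE2 had the same order, with 0.71 under rimonabant and -1.46 under TXX-1-10. CDKN1A, the gene of the inhibitor p21, was higher under both, by 1.45 and 2.03 (edgeR adjusted p = 1.40e-08 and 2.08e-11). CDKN1B, the gene of the inhibitor p27, was lower under both, with -0.31 and -0.29. The cyclin genes CCNA2 and CCND1 were lower under both as well, CCNA2 with -0.39 (rimonabant) and -2.29 (TXX-1-10), and CCND1 with -0.40 and -1.06 in that order. CCNE1 and CDK2 had 0.34 and 0.11 under rimonabant, not past the threshold, and -0.76 and -0.81 under TXX-1-10. The part of cell cycle distribution in the changes of the replication genes was not tested.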

How the data were processed

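For each library the authors deposited whole-number read counts per gene without normalization. Beside each count the authors deposited an FPKM value, the count per kilobase of gene length and per 1000000 of a library total, which was recovered from the values and used as library size although it differs from the sum of counts. The submitters' processing notes name HISAT2 2.0.5 and featureCounts 1.5.0-p3, and the study's methods oligo(dT) selection and uniquely mapped exonic reads. Each list's last, incomplete line was dropped. Coordinates are GRCh38 with GENCODE gene models. The main test was edgeR 4.0.16 (glmQLFit, glmQLFTest, R 4.3.3) on 8 libraries and 9369 genes with mean FPKM of at least 1, one model of 3 groups, with Benjamini-Hochberg adjustment over all tested genes. The common biological coefficient of variation was 0.0604. Standard errors and intervals derive from the test statistic and are approximate. On simulated counts for TXX-1-10 against vehicle over 9369 genes, 200 of 200 genes changed 3-fold were recovered, with 0 false calls past 2-fold and 5 at any fold. The simulation changed only these 200 genes and held no library that stood apart and no trend with gene length. It therefore checks the code and gives no rate of false calls for these data. Alternatives were all 9 libraries, TMM, sum of counts, DESeq2 1.42.0, limma 3.58.1 on log2(FPKM + 1) and log2(FPKM + 0.1), filters, length correction, a replicate block, 2 groups only and leaving out libraries. Fits of 9 libraries with TMM or length correction were added after the data were seen. The members and lists were chosen with earlier results of these data known. Values in every library are given for the 2 lowest and the highest member of each role group, MCM2 to MCM7, PCNA, FEN1, members higher in any comparison and untested members.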

Additional observations from a re-analysis of the deposited data

How the results depend on the processing

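The counts and medians over the members kept their direction except under rimonabant with the sum of counts over tested genes as scale. There the median of -0.05 became 0.022, and the 14 lower and 10 higher members became 9 and 11. The median of all genes moved from 0.003 to 0.077, with 16.6% lower and 32.9% higher in place of 22.8% and 23.7%. That scaling shifted the median of all genes by 0.14 under TXX-1-10, where 32.0% were then lower and 44.3% higher in place of 40.6% and 34.7%, and the members' medians became -1.08 against vehicle and -1.17 against rimonabant. On log2(FPKM + 1) with limma these medians were -1.09 and -1.14, and with the gene length correction, alone or with the replicate block, the first was -1.13. All 9 libraries held 24 testable members, so that the counts fell by construction. Against vehicle 24 were lower under TXX-1-10, 16 at least 2-fold. Against rimonabant 24 were lower, 17 at least 2-fold, with a median of -1.17. With TMM in 9 libraries the latter were 24, 16 and -1.08, and with length correction 24, 14 and -1.09, the rimonabant median against vehicle then being -0.10. Leaving out 1 library in turn gave 44 to 45 lower under TXX-1-10, 31 to 32 at least 2-fold, medians -1.23 to -1.17. Under rimonabant the medians were -0.08 to -0.05. With both rimonabant libraries kept, 17 to 30 members were called there, 0 at least 2-fold. Without vehicle replicate 2, which gave the 17, 18.1% of all tested genes were lower and 18.8% higher. Without TXX-1-10 replicate 3, which gave the 30, these shares were 31.0% and 30.9%. TXX-1-10 against rimonabant gave medians of -1.30 to -1.21, and with both kept 44 to 45 lower and 31 to 33 at least 2-fold. Causes were not tested.

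Whether the replicate numbers pair the libraries is not given in the sources used here. Libraries with the same number departed from their group mean with correlations across genes of -0.06, 0.01 and -0.07 (TXX-1-10 and vehicle), -0.05, 0.04 and 0.04 (rimonabant and vehicle) and -0.79, 0.83 and -0.61 (TXX-1-10 and rimonabant). The group means include rimonabant replicate 1 and TXX-1-10 replicate 3, which stood apart, so these correlations cannot show whether libraries were paired. With the replicate number as a block, 44 members were lower under TXX-1-10 (32 at least 2-fold) and 44 were lower against rimonabant (33 at least 2-fold). Under rimonabant 22 passed in that fit, 14 lower and 8 higher, beside 22.0% and 22.8% of all tested genes. Among single members, TXX-1-10 calls were lost in ORC5 and RPA2 only, and under rimonabant 14 of 24 calls were lost in at least 1 alternative. Genes that some of the 8 lists do not reach were not tested here.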
